A study of Mus musculus with 4 samples.

Results

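The genes described here are the extracellular and feedback components of the Wnt pathway. They comprise the Wnt ligands, the Frizzled (Fzd) and Lrp receptors, the secreted antagonists of the Sfrp, Dkk, Wif1 and Notum families, the R-spondins with their receptors and ubiquitin ligases, and feedback or nuclear genes. Members were picked by a rule on gene symbols, and 56 of the 24319 entries used were found. The rule was set with earlier results of these data known. The RNA was that of primary mouse mesenchymal stem cells (MSCs) of the bone marrow, stromal cells that grow attached to the dish, kept in culture for 4 days. The 4 groups were Kdm4b KO cells under osteogenic induction, wildtype (WT) cells under induction, KO cells in control medium and WT cells in control medium, with 1 library each. The labels give neither the Kdm4b allele, the Cre driver if any, the composition of the induction medium, nor the age, sex or number of the animals. Levels are in FPKM, which counts fragments relative to the length of the transcript and to all mapped fragments of the library. Differences are log2 ratios of FPKM + 1, which makes those of low genes look smaller than they are. Genes are called higher or lower at a ratio of 1 or more in size, a 2-fold difference, provided that they reached 1 FPKM in a library compared. With 1 library per group there is no spread between replicates, so no comparison below has a test, a p-value or an error.

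Wnt proteins are lipid-modified secreted ligands that bind Frizzled receptors. Together with the co-receptors Lrp5 and Lrp6 they stop the breakdown of beta-catenin, which then activates target genes with TCF and LEF factors. Sfrp proteins and Wif1 bind the ligands themselves, while Dkk1 and Dkk2 bind Lrp5 and Lrp6. R-spondins act through Lgr receptors to remove the ubiquitin ligases Rnf43 and Znrf3, which otherwise clear Frizzled from the cell surface. In bone, signalling through Lrp5 and beta-catenin is known to favour osteoblasts and to restrain fat cell formation in marrow stroma.

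Kdm4b, the targeted histone demethylase, was at 4.26 FPKM in the induced library labelled KO, against 5.83 FPKM in its WT counterpart. In control medium the library labelled KO had 4.30 FPKM of Kdm4b, against 4.60 FPKM for the library labelled WT. A gene-level value does not resolve a deleted exon, so every direction below is between libraries as labelled, and KO library and WT library stand for the library labelled so. The induced library labelled WT stood apart from the other 3. Xist, the RNA of the silenced X chromosome, was at 0.0621 FPKM there and between 21.6 and 30.5 FPKM in the others, and the Y-linked gene Ddx3y was at 28.7 FPKM there and at no more than 0.0208 FPKM in the others. Between the induced libraries, genotype and the sex of the animals thus cannot be told apart. Between the libraries labelled WT, the same holds for medium and sex. Between the induced WT and the control KO library it holds for genotype, medium and sex. Whether each label matches its sample was not tested. Of 12 stromal markers, 10 or 11 reached 1 FPKM in each library, while Lepr, a receptor found on marrow stroma in the adult, stayed under 1 FPKM in all 4. Macrophage markers were abundant, with a summed level of 10610, 9445, 10475 and 11514 FPKM over 10 genes in the induced KO, induced WT, control KO and control WT libraries. In such bulk samples, fewer cells of a type and less RNA per cell cannot be told apart.

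Of the 56 members, 26 reached 1 FPKM in at least 1 library and are called measured, and 30 stayed under 1 FPKM in all 4 and are called silent. Of the silent genes, 9 were listed at 0 in all 4 libraries. These were Wnt1, Wnt3, Wnt3a, Wnt6, Wnt7a, Wnt8a, Wnt8b, Wnt9b and Rspo4. The other silent members peaked between 0.0186 FPKM (Fzd10) and 0.863 FPKM (Wnt5b). They were the ligands Wnt2, Wnt2b, Wnt5b, Wnt7b, Wnt10a and Wnt16, the receptors Fzd3, Fzd4, Fzd6, Fzd9 and Fzd10, and the antagonists Dkk1, Dkk4, Sfrp5 and Notum. The rest were Rspo1, Rnf43, the feedback inhibitors Axin2 and Nkd1, the receptor gene Tnfrsf19 and the transcription factor gene Lef1. Values of silent members named below were picked after they had been seen. Ligands were mostly silent, with 5 of 19 measured, whereas 7 of 12 receptors and 6 of 10 secreted antagonists were measured. The R-spondin arm had 5 of 8 genes measured and the feedback and nuclear group 3 of 7.

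Dkk3, a secreted member of the Dickkopf family whose action on Wnt receptors is disputed, had the highest FPKM of all members in every library. The genes behind it differed between libraries. Sfrp4 came next in the induced KO, control KO and control WT libraries, and Rspo2 came next in the induced WT library. The induced WT library held the highest or the lowest value of 22 of the 26 measured members (84.6%), and of 74.7% of the 12294 genes measured in all.

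**Figure D1:**
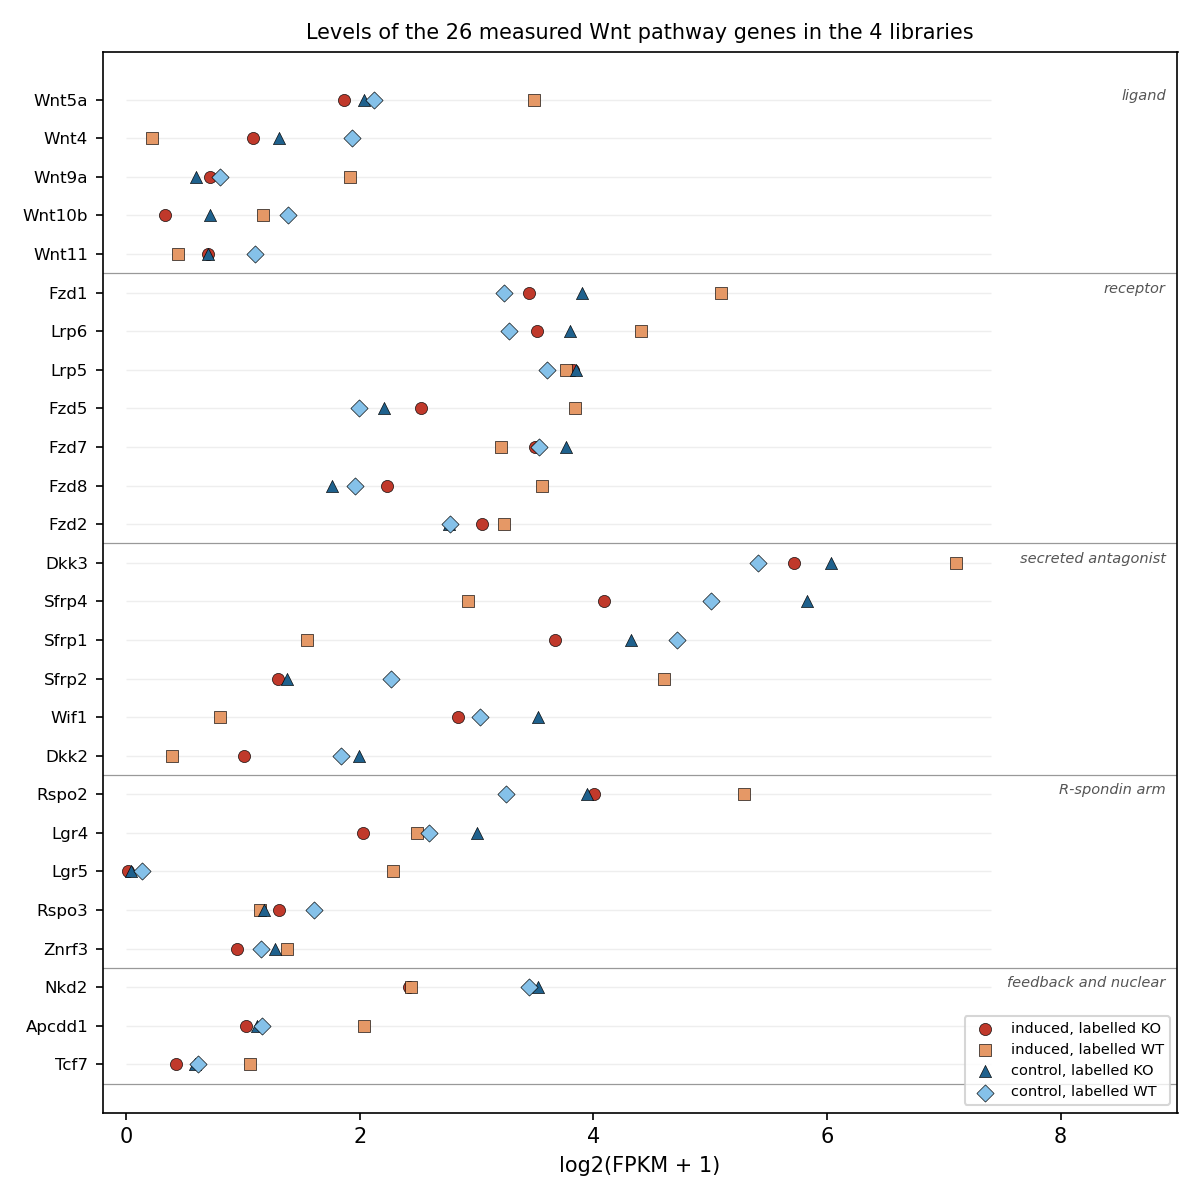
Level of each of the 26 measured members as log2(FPKM + 1), with 1 point per library, ordered by role and then by highest level. The squares of the induced library labelled WT lie outside the range of the other 3 points for 22 of the 26 genes.

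Under osteogenic induction, the question was how the library labelled KO differed from the one labelled WT. In the library labelled KO, 10 members were lower and 3 were higher. The lower ones were the ligands Wnt5a and Wnt9a, the receptors Fzd1, Fzd5 and Fzd8, the antagonists Sfrp2 and Dkk3, the R-spondin gene Rspo2, its receptor Lgr5 and the inhibitor Apcdd1. The higher ones were the antagonists Sfrp1, Wif1 and Sfrp4. Together 13 of the 25 members that reached 1 FPKM in these libraries were called, which is 52.0%, beside 10.7% of all 11936 entries tested (5.27% higher and 5.4% lower). The median log2 ratio of the 25 members was -0.64, and that of all entries was -0.02. Members enter this count through the library in which they are high, so the count describes those genes only.

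The ligand Wnt5a, which mostly signals through Frizzled and Ror2 without beta-catenin, was at 2.65 FPKM in the induced KO library, against 10.2 FPKM in the induced WT library. In control medium Wnt5a was at 3.10 FPKM in the KO library, against 3.36 FPKM in the WT library. Only the induced WT library was therefore high, by a log2 ratio of KO to WT of -1.62 under induction and with a ratio of -0.09 in control medium. Wnt5a held the largest share of the summed Wnt ligand FPKM in each library, at 38.2% in the induced KO, 59.7% in the induced WT, 39.1% in the control KO and 31.3% in the control WT library.

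Wnt9a, a ligand of joints and skeletal elements, was at 0.645 FPKM in the induced KO library, 2.79 FPKM in the induced WT library, 0.517 FPKM in the control KO library and 0.748 FPKM in the control WT library. Its log2 ratio under induction was -1.20, with the induced WT library alone above 1 FPKM. Wnt4, which in mouse acts in kidney, gonad and bone, had its lowest value in the induced WT library. It was at 1.12 FPKM in the induced KO library, against 0.170 FPKM in the induced WT library, and at 1.48 FPKM in the control KO library, against 2.82 FPKM in the control WT library. Its ratio of 0.86 under induction stayed short of the rule, and it passed (2.18) with a pseudocount of 0.1 FPKM.

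Wnt10b, a ligand that in mice promotes bone formation and blocks adipogenesis, was at 0.261 FPKM in the induced KO library, against 1.25 FPKM in the induced WT library. In control medium it was at 0.644 FPKM in the KO library, against 1.61 FPKM in the WT library. It was below its WT counterpart in both media, with log2 ratios of -0.84 and -0.67 that did not pass the rule. With a pseudocount of 0.1 FPKM these ratios were -1.90 and -1.20 and passed. Wnt11, a ligand of cell movements, peaked at 1.15 FPKM in the control WT library and was at 0.359 to 0.622 FPKM in the other 3. Some silent ligands had their only appreciable value in the induced WT library, such as Wnt7b, which was at 0.469 FPKM there and listed at 0 in the other 3. Wnt16, a bone-protective ligand in mouse, was listed at 0 in the induced KO library and was at 0.708 FPKM in the induced WT library. Both stayed under the floor of 1 FPKM.

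Among receptors, Fzd1 was at 9.91 FPKM in the induced KO library, against 33.0 FPKM in the induced WT library. In control medium it was at 13.9 FPKM in the KO library, against 8.44 FPKM in the WT library. The log2 ratio was -1.64 under induction and 0.66 in control medium, so the KO library was below its WT counterpart under induction and above it in control medium. Fzd5 was at 4.75 FPKM in the induced KO library, 13.3 FPKM in the induced WT library, 3.61 FPKM in the control KO library and 2.98 FPKM in the control WT library, a ratio of -1.32 under induction. Fzd8 was at 3.70 FPKM in the induced KO library, 10.8 FPKM in the induced WT library, 2.39 FPKM in the control KO library and 2.88 FPKM in the control WT library, a ratio of -1.33. All 3 receptors had their highest value in the induced WT library.

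The other Frizzled genes measured did not share this pattern. Fzd7 ranged only from 8.27 FPKM in the induced WT library to 12.6 FPKM in the control KO library, and Fzd2 from 5.80 to 8.40 FPKM. Their ratios of KO to WT under induction were 0.29 and -0.18, short of the rule. The make-up of the receptor pool therefore differed. Fzd7 and Fzd1 were close in level in the induced KO library, at 27.9% and 26.8% of the summed Frizzled FPKM, while in the induced WT library Fzd1 made up 43.3% and Fzd7 10.9%. The summed Frizzled level was 37.0 FPKM in the induced KO library, 76.2 FPKM in the induced WT library, 39.7 FPKM in the control KO library and 32.0 FPKM in the control WT library.

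Lrp5 and Lrp6, the co-receptors that pass the signal on to beta-catenin, differed from each other. Lrp5 was at 13.2 FPKM in the induced KO library, 12.6 FPKM in the induced WT library, 13.5 FPKM in the control KO library and 11.1 FPKM in the control WT library, the narrowest relative range among the members above 10 FPKM. Lrp6 was at 10.5 FPKM in the induced KO library, 20.2 FPKM in the induced WT library, 13.0 FPKM in the control KO library and 8.72 FPKM in the control WT library. Its ratio of KO to WT under induction was -0.89, just short of the rule. Lrp6 exceeded Lrp5 in the induced WT library, 1.61-fold, and in none of the other 3.

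The secreted antagonists held 5 of the 13 calls, and these differed in direction. Sfrp2, a Frizzled-related protein that is made by mesenchymal cells, was at 1.47 FPKM in the induced KO library, against 23.3 FPKM in the induced WT library. In control medium Sfrp2 was at 1.60 FPKM in the KO library, against 3.80 FPKM in the WT library. Its ratio under induction, -3.30, ranked 47 from the bottom of 11936 entries, and that in control medium was -0.89. Both KO libraries were thus below both WT libraries, with the control ratio short of the rule.

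Sfrp1, its close relative, which in mouse limits bone mass, was at 11.8 FPKM in the induced KO library, against 1.93 FPKM in the induced WT library. In control medium Sfrp1 was at 19.0 FPKM in the KO library, against 25.2 FPKM in the WT library. The ratio was 2.12 under induction, at rank 114 from the top, and -0.39 in control medium. Within a library, Sfrp1 exceeded Sfrp2 by 8.0-fold in the induced KO, 11.8-fold in the control KO and 6.63-fold in the control WT library, while in the induced WT library Sfrp2 exceeded Sfrp1 by 12.1-fold.

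Wif1, a secreted protein that binds Wnt ligands through its own WIF domain, was at 6.17 FPKM in the induced KO library, against 0.746 FPKM in the induced WT library. In control medium it was at 10.5 FPKM in the KO library, against 7.16 FPKM in the WT library. The log2 ratio was 2.04 under induction and 0.50 in control medium, and the induced WT library alone was under 1 FPKM. Sfrp4, a Frizzled-related protein whose loss thins cortical bone in mouse, was at 16.1 FPKM in the induced KO library, 6.62 FPKM in the induced WT library, 55.7 FPKM in the control KO library and 31.1 FPKM in the control WT library. The KO library was above its WT counterpart in both media, by 1.16 under induction and by 0.82, short of the rule, in control medium. With the libraries scaled to equal sums without small RNA genes, the ratio under induction no longer passed (0.94) and that in control medium did (1.05).

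As a result, the summed Sfrp level was close in the induced libraries while its source differed. It was 29.3 FPKM in the induced KO library and 31.9 FPKM in the induced WT library. Sfrp2 made up 5.02% of it in the induced KO library and 73.2% in the induced WT library, while Sfrp1 made up 40.1% in the induced KO library and 6.06% in the induced WT library. In control medium the sum was 76.3 FPKM in the KO library and 60.2 FPKM in the WT library, with Sfrp4 the leading member of both.

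**Figure D2:**
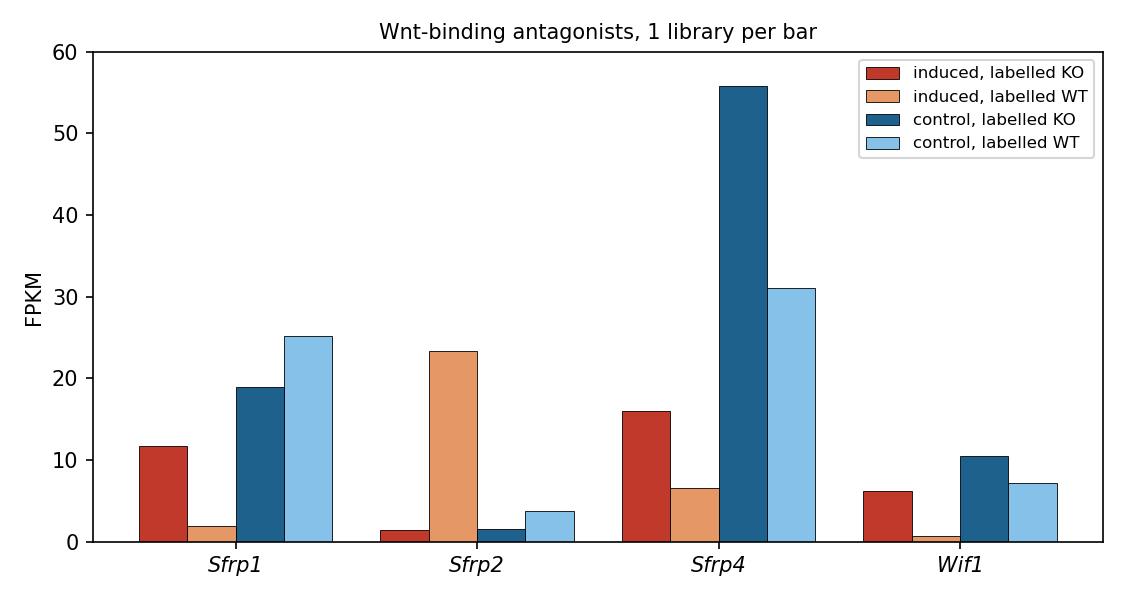
FPKM of 4 antagonists that bind Wnt ligands, with 1 bar per library. The bar of Sfrp2 reaches 23.3 FPKM for the induced WT-labelled library and 1.47 to 3.80 FPKM elsewhere, while Sfrp1, Sfrp4 and Wif1 have their lowest bar in that same library.

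Sfrp2 and Wif1 were called in opposite directions, and their promoters are shown for that reason. That of Wnt11 is shown as well, since of the 13 measured members with a promoter entry it alone had a match to the TCF/LEF letters. The sequences are the 250 bases before the annotated start, from RefSeq on build GRCm38.p6, plus strand, at chr3:83766071-83766320 for Sfrp2, chr10:121033754-121034003 for Wif1 and chr7:98834862-98835111 for Wnt11. Capitals mark a match to the motif CTTTGAT or its reverse complement ATCAAAG.
Sfrp2: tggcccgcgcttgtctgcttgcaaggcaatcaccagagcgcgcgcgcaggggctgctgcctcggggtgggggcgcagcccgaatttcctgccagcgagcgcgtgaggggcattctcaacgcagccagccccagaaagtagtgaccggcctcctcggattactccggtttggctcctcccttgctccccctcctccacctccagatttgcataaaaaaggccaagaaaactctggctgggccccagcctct
Wif1: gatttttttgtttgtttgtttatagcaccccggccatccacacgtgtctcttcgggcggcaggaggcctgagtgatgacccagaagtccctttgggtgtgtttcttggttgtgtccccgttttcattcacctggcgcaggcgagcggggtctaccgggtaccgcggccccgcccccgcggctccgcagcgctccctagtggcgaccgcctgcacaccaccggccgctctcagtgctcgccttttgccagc
Wnt11: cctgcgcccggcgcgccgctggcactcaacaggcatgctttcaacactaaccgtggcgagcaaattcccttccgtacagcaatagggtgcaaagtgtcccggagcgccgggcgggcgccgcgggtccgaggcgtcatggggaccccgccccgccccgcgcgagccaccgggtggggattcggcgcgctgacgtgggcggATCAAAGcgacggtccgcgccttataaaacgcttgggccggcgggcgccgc
The Wnt11 match lay on the opposite strand and began 51 bases before the start. Over windows of 300 bases that also hold the first 50 bases after the start, 3 of 36 members with a promoter entry held the motif, which is 8.33% of genes, beside 4.29% of 27025 genes in all. The members with a match were Wnt11, Wnt5b and Tnfrsf19, each of which also had another annotated start without a match. No binding was measured here, and a missing match says only that these letters are not in the window.

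Dkk3 was at 51.7 FPKM in the induced KO library, against 137 FPKM in the induced WT library, and at 64.7 FPKM in the control KO library, against 41.5 FPKM in the control WT library. Its ratio was -1.38 under induction and 0.63 in control medium. Dkk2, an antagonist that binds Lrp6, was at 1.01 FPKM in the induced KO library, 0.311 FPKM in the induced WT library, 2.98 FPKM in the control KO library and 2.58 FPKM in the control WT library. It was higher in both control libraries than in both induced ones, with a KO to WT ratio of 0.62 under induction that did not pass the rule. With a pseudocount of 0.1 FPKM that ratio was 1.43 and passed. Dkk1, the best known inhibitor of Lrp6, was silent at 0.146 to 0.271 FPKM. Notum, an enzyme that removes the lipid from Wnt ligands, was silent too, at 0.245 FPKM in the induced KO library, listed at 0 in the induced WT library, at 0.487 FPKM in the control KO library and at 0.812 FPKM in the control WT library.

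In the R-spondin arm, Rspo2 was at 15.0 FPKM in the induced KO library, against 38.1 FPKM in the induced WT library. In control medium it was at 14.4 FPKM in the KO library, against 8.51 FPKM in the WT library, so that the ratio was -1.29 under induction and 0.69 in control medium. Rspo2 made up 80.5% to 96.9% of the summed R-spondin FPKM, and Rspo3, at 1.21 to 2.06 FPKM, nearly all of the rest. Lgr5, an R-spondin receptor and itself a known Wnt target, was at 0.0111 FPKM in the induced KO library, 3.87 FPKM in the induced WT library, 0.0300 FPKM in the control KO library and 0.0980 FPKM in the control WT library. It was near 0 in all libraries but the induced WT one, and its ratio of -2.27 ranked 83 from the bottom. Lgr4, the related receptor, was at 3.07 FPKM in the induced KO library, 4.61 FPKM in the induced WT library, 7.03 FPKM in the control KO library and 5.04 FPKM in the control WT library. Its ratio under induction was -0.46, and unlike Lgr5 it was present in all 4 libraries. Of the ubiquitin ligases, Znrf3 was at 0.936 to 1.60 FPKM and Rnf43 was silent.

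In the feedback and nuclear group, Apcdd1, a membrane inhibitor that is induced by Wnt signalling in several tissues, was at 1.04 FPKM in the induced KO library, against 3.09 FPKM in the induced WT library. In control medium it was at 1.18 FPKM in the KO library, against 1.24 FPKM in the WT library. With a ratio of -1.0 it lay closest to the size rule of the called members, and the call was lost with a pseudocount or a floor of 5 FPKM, with median-ratio size factors, and with the trend with length or GC content removed. Nkd2, an inhibitor that binds Dishevelled, was nearly equal in both induced libraries, at 4.35 FPKM in the KO and 4.42 FPKM in the WT library. Tcf7, the TCF1 transcription factor, was at 0.342 FPKM in the induced KO library, 1.09 FPKM in the induced WT library, 0.508 FPKM in the control KO library and 0.536 FPKM in the control WT library. Axin2 was silent, with 0.0680 FPKM in the induced KO library, 0.647 FPKM in the induced WT library, 0.557 FPKM in the control KO library and 0.273 FPKM in the control WT library.

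The calls between the induced libraries were also counted with the control library labelled WT in place of the induced one. Then 3 members were called, all lower (Wnt10b, Sfrp1 and Nkd2), and 0 of the 13 calls remained. That library also differs in medium and was deposited separately, so this count cannot show what the 13 calls depend on. With a pseudocount of 5 FPKM, 5 of the 13 calls remained, namely Dkk3, Fzd1, Rspo2, Sfrp1 and Sfrp2, and with the length trend removed Fzd5 (-0.93) was lost beside Apcdd1.

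In control medium, where both libraries had Xist and lacked Y-linked RNA, the same question gave a different picture. Of 23 members that reached 1 FPKM, 0 were called, beside 2.4% of all 11845 entries (0.929% higher and 1.47% lower). The largest ratios were those of Sfrp2 (-0.89), Sfrp4 (0.82), Rspo2 (0.69), Wnt10b (-0.67), Fzd1 (0.66), Dkk3 (0.63) and Wnt4 (-0.62). The median size of the ratio, regardless of its sign, was 0.41 over the 23 members and 0.25 over all entries. With a pseudocount of 0.1 FPKM, Sfrp2 (-1.20) and Wnt10b (-1.20) passed the rule. With equal sums Sfrp4 was the 1 member past it.

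**Figure D3:**
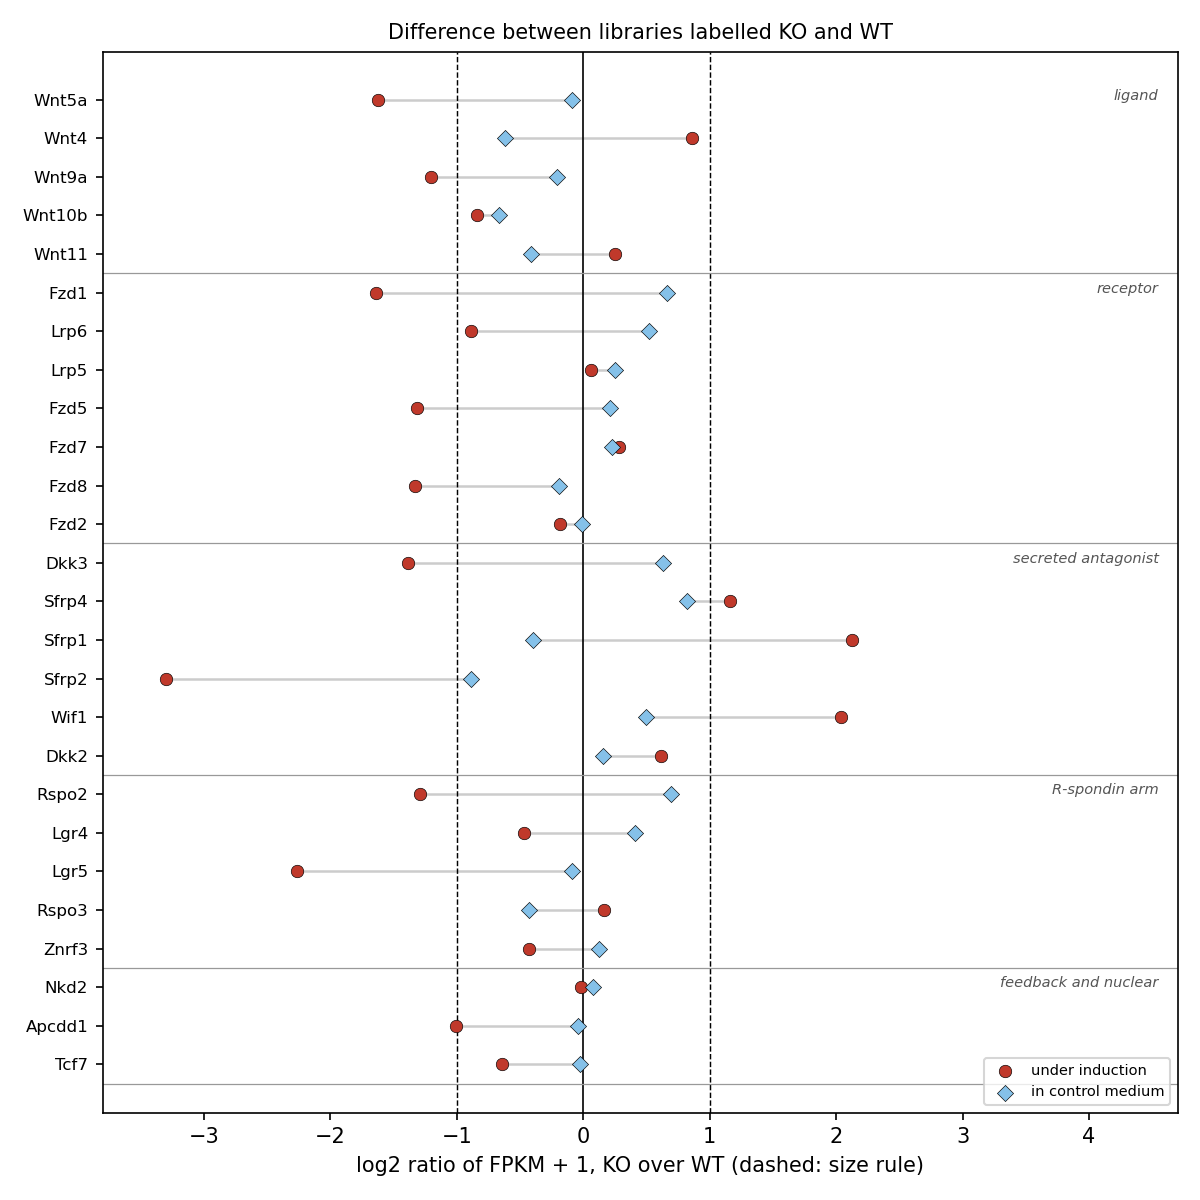
Log2 ratio of FPKM + 1, KO over WT, for the 26 measured members under induction (circles) and in control medium (diamonds), with dashed lines at the size rule. Under induction 13 circles lie past the lines, from -3.30 for Sfrp2 to 2.12 for Sfrp1, while all diamonds lie within them.

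The induction comparisons asked how the induced library differed from the control library within each genotype label. Induced and control values were deposited separately, and the scaling between them is not given. Medium and any difference between the 2 deposits thus cannot be told apart. In cells labelled KO, 2 of 21 members differed, both lower under induction, beside 2.61% of all 11748 entries (1.54% higher and 1.07% lower). They were Sfrp4, with a log2 ratio of -1.73 that ranked 38 from the bottom, and Nkd2, with -1.11. Dkk2 (-0.99) and Lgr4 (-0.98) lay just short of the rule. The receptors Fzd1, Fzd2, Fzd5, Fzd7, Fzd8, Lrp5 and Lrp6 had ratios between -0.45 and 0.47, and Wnt5a had -0.17.

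In cells labelled WT, 16 of 26 members differed, 10 of them higher and 6 lower under induction, beside 15.2% of all 12094 entries (7.22% higher and 7.95% lower). The higher genes were Sfrp2 (2.34), Lgr5 (2.15), Rspo2 (2.04), Fzd1 (1.85), Fzd5 (1.85), Dkk3 (1.69), Fzd8 (1.60), Wnt5a (1.37), Lrp6 (1.13) and Wnt9a (1.12). The lower genes were Sfrp1 (-3.16), Wif1 (-2.22), Sfrp4 (-2.07), Wnt4 (-1.71), Dkk2 (-1.45) and Nkd2 (-1.02). This comparison and that between the induced libraries both use the induced library labelled WT. With a pseudocount of 5 FPKM 9 members were called, and with the length trend removed Wnt5a (0.96) and Lrp6 (0.59) no longer passed.

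The induction comparisons share no library with each other and can be set side by side. Both set separately deposited values against each other, so a difference between the deposits would enter both alike. Sfrp4 and Nkd2 were called lower in both, which makes 2 of the 2 calls in KO cells and 2 of the 16 calls in WT cells. Nkd2 was at 4.35 FPKM in the induced KO library, against 10.5 FPKM in the control KO library, and at 4.42 FPKM in the induced WT library, against 9.95 FPKM in the control WT library. Both induced values were thus below both control values and close to each other. Sfrp4, Dkk2, Sfrp1, Wif1, Wnt4, Fzd7 and Lgr4 also had both induced values below both control values, with the ratio of Lgr4 in WT cells above 0 (0.15) under equal sums. Fzd2, Fzd5, Fzd8 and Rspo2 had both above, with the ratio of Rspo2 in KO cells below 0 (-0.11) under equal sums. How many of all entries were called in both comparisons, or were ordered in these ways, was not counted. The members are therefore only listed, and nothing particular to them can be read from it. The Nkd2 call in WT cells was lost with a pseudocount of 5 FPKM (-0.67), median-ratio size factors (-0.99), equal sums (-0.75) and the GC trend removed (-0.81). Its call in KO cells was lost with a pseudocount of 5 FPKM (-0.73) and with the length trend removed (-0.99).

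**Figure D4:**
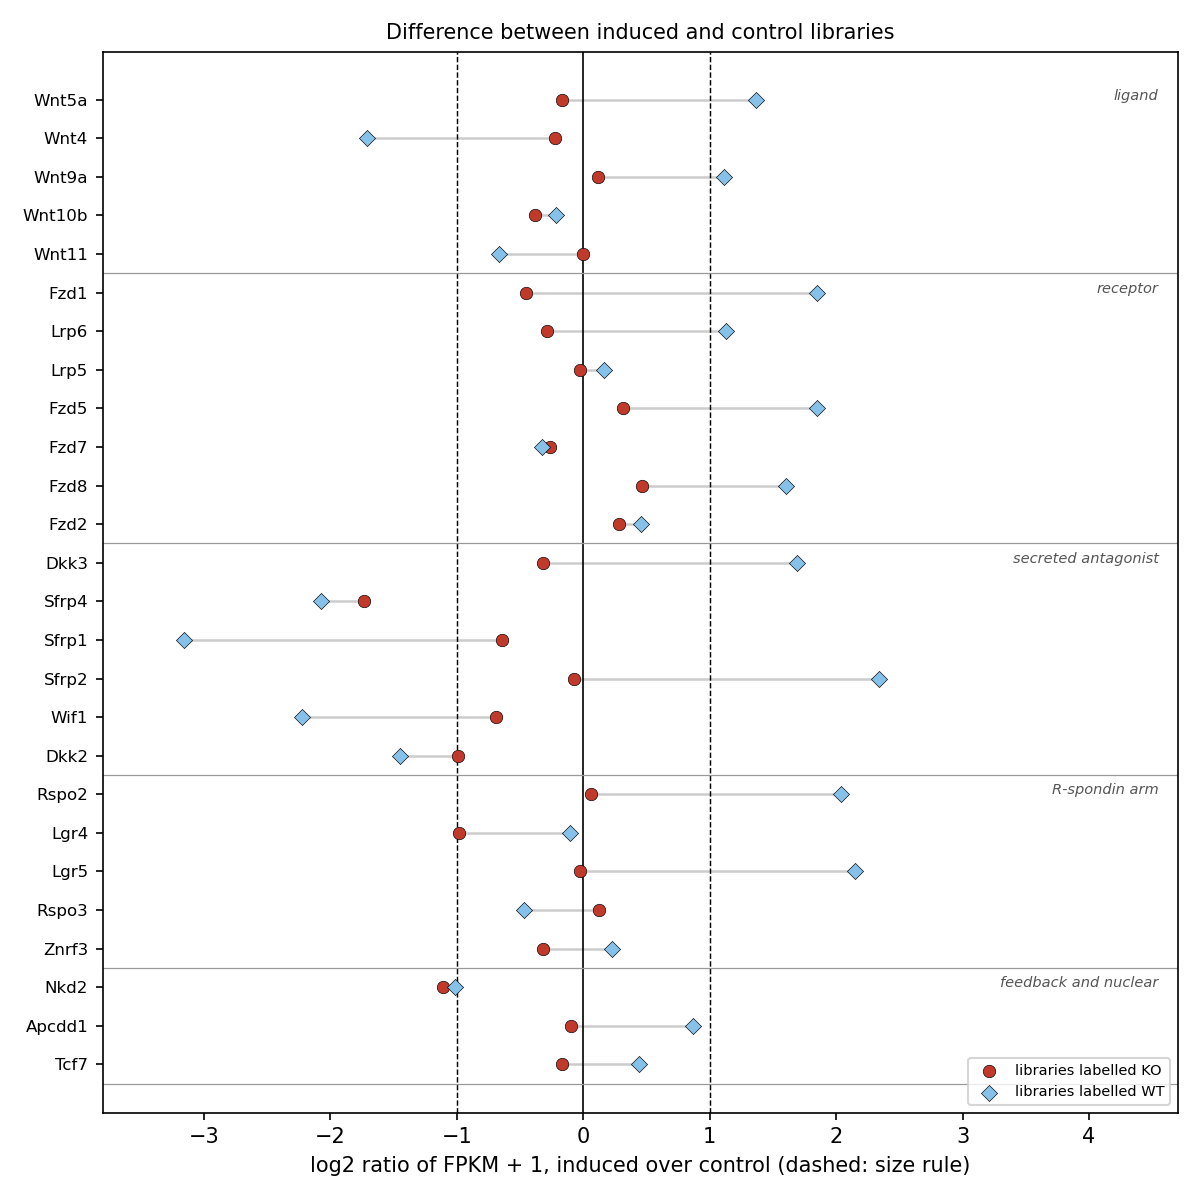
Log2 ratio of FPKM + 1, induced over control, for the 26 measured members in libraries labelled KO (circles) and WT (diamonds), with dashed lines at the size rule. Sfrp4 and Nkd2 lie past the left line in both, while 14 other genes pass in the libraries labelled WT alone.

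Set out over all 6 pairs of libraries, the number of called members was highest where the induced library labelled WT took part. The 3 pairs with that library had 13 of 25, 16 of 26 and 15 of 25 members called, beside 10.7%, 15.2% and 9.93% of all entries. The 3 pairs without it had 0 of 23, 2 of 21 and 3 of 23 members called, beside 2.4%, 2.61% and 2.83%. Between the induced KO and the control WT library all 3 members called were lower, with 1.43% of all entries higher and 1.4% lower. Between the induced WT and the control KO library 9 members were higher and 6 lower, with 4.67% of all entries higher and 5.26% lower. Pairs that share a library are not independent of each other.

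**Figure D5:**
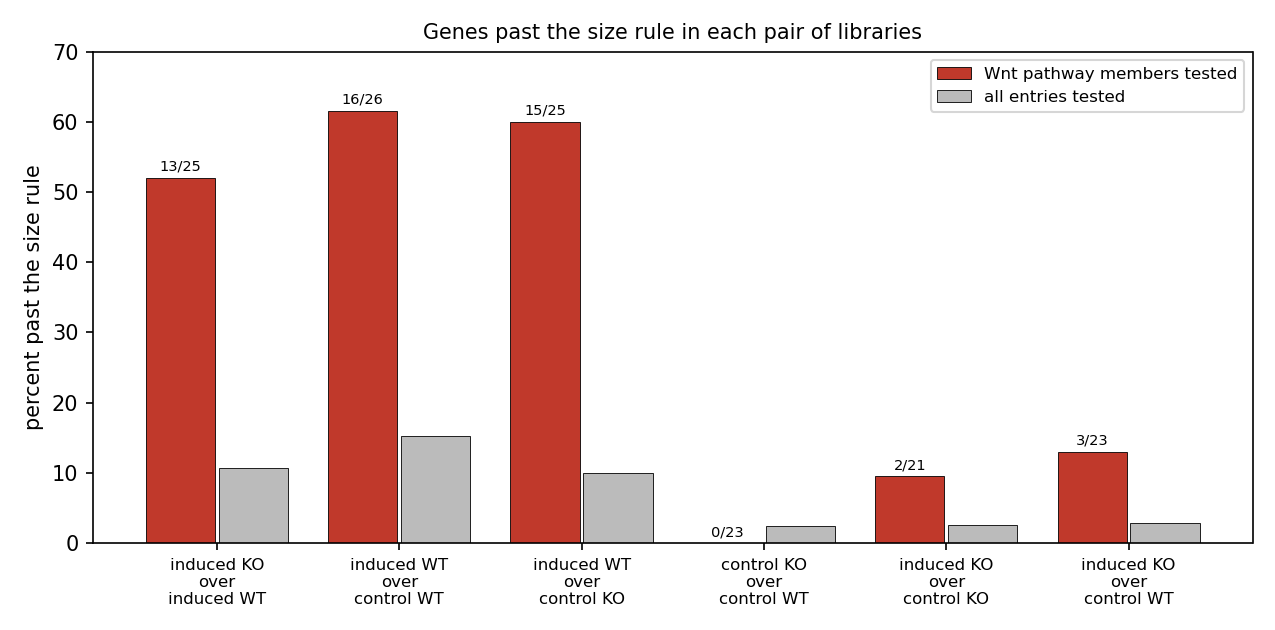
Percent of members (red) and of all entries (grey) past the size rule in each pair of libraries, with the number of members called and tested above each red bar. The 3 pairs with the induced library labelled WT, at the left, have 52.0% to 61.5% of members past the rule, and the 3 pairs without it 0 to 13.0%.

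Other genes of the pathway were taken from 4 lists. In the list of Wnt secretion and surface partners, 3 of the 11 genes tested were lower in the induced KO library than in the induced WT library and 1 was higher, beside 5.4% lower and 5.27% higher of all entries. Wls, the carrier that brings Wnt ligands to the cell surface, was at 59.4 FPKM in the induced KO library, 157 FPKM in the induced WT library, 83.5 FPKM in the control KO library and 54.6 FPKM in the control WT library, a ratio of -1.39 under induction. Porcn, the enzyme that attaches the lipid to Wnt ligands, had a ratio of -1.10, and Cthrc1, a secreted protein that can bind Wnt and Frizzled, of -1.01. Frzb, another Frizzled-related protein, was higher, with 4.02 FPKM in the induced KO library, against 0.769 FPKM in the induced WT library (1.5). Frzb was thus lowest in the induced WT library, as Sfrp1, Sfrp4 and Wif1 were. Sost, the osteocyte antagonist sclerostin, was listed at 0 in all 4 libraries.

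In the planar polarity and Ror list, 2 of 10 genes were lower in the induced KO library and 0 were higher, beside the same 10.7% called of all entries. Ror2, a receptor for Wnt5a, was at 1.75 FPKM in the induced KO library, 5.71 FPKM in the induced WT library, 2.01 FPKM in the control KO library and 0.506 FPKM in the control WT library, with a ratio of -1.29. Ptk7, a co-receptor in cell polarity, had -1.27. Of 27 intracellular genes, 1 was lower and 0 were higher, a smaller share than the 10.7% of all entries called. It was Tnks (-1.14), which encodes a tankyrase that marks Axin for degradation. Ctnnb1, which encodes beta-catenin, was at 153 FPKM in the induced KO library, against 240.0 FPKM in the induced WT library, and at 223 FPKM in the control KO library, against 172 FPKM in the control WT library. Its ratios of -0.65 and 0.37 were short of the rule.

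Of 13 Wnt target genes outside the membership, 5 were lower in the induced KO library and 1 was higher, beside 10.7% called of all entries. Tnfrsf11b, the decoy receptor osteoprotegerin, which beta-catenin induces in osteoblasts, had a ratio of -1.61, the gap junction gene Gja1 -1.88 and Twist1, a mesenchymal transcription factor, -1.47. Wisp1 (-3.89) and Wisp2 (-1.17) were lower as well, and Msx2 (1.32) was higher. The other 7 were short of the rule, namely Myc (0.41), Fosl1 (0.21), Nrcam (0.08), Jag1 (0.06), Ccnd1 (0.02), Cd44 (-0.18) and Bambi (-0.70). The medians of the secretion, polarity, intracellular and target lists were -0.43, -0.71, -0.29 and -0.18 in this comparison, beside -0.02 over all entries. In control medium 0, 0, 0 and 1 of the 12, 8, 26 and 13 genes tested were called, the last being Gja1 (1.07), beside 2.4% of all entries. In KO cells under induction the target gene Gja1 (-1.41) was the only one of the 4 lists to pass, beside 2.61% of all entries. In WT cells 3 of 12, 2 of 10, 4 of 27 and 4 of 13 genes passed, in the same order of lists, beside 15.2% of all entries.

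Some markers of cell types differed between the same libraries. Between the induced libraries 10.7% of all entries were called, the share to set beside each count of markers. Of 7 osteoblast markers tested, 5 were lower and 1 was higher in the induced KO library than in the induced WT library. The lower ones were Ibsp, the bone sialoprotein, at 1.98 FPKM against 177 FPKM, Sp7 (-2.12), Dmp1 (-1.98), Spp1 (-1.96) and Alpl (-1.58). Bglap2 was higher, at 1.71 FPKM against 0.216 FPKM (1.16), and Runx2 (-0.98) was short of the rule. The summed osteoblast list was at 1671, 6654, 3230 and 3172 FPKM in the induced KO, induced WT, control KO and control WT libraries, most of it Spp1, the gene of osteopontin, which macrophages also express. Of 11 stromal markers tested, 3 were lower and 3 were higher in the induced KO library. The lower ones were Nt5e (-2.64), Col1a2 (-1.58) and Pdgfrb (-1.33). The higher ones were Ly6a, the surface antigen Sca-1 (3.63), Thy1 (2.43) and Eng (1.91). The summed stromal list was at 1292, 2230, 1160 and 1010 FPKM in the induced KO, induced WT, control KO and control WT libraries. Prrx1, a mesenchymal transcription factor, was short of the rule (-0.92). It was at 32.0, 61.3, 42.1 and 20.4 FPKM in the same order of libraries. Of 10 macrophage markers 1 was called, Cd14 (2.46), which is close to the share of all entries. The part of these markers in the Wnt gene differences was not tested. Of 5 adipocyte markers tested, 3 were higher and 1 was lower in the induced KO library, with summed levels of 605, 344, 388 and 484 FPKM in the induced KO, induced WT, control KO and control WT libraries. The higher ones were Adipoq (1.45), Fabp4 (1.28) and Pparg (1.15), and the lower one was Cd36 (-1.23). Fabp4 was the largest part of each sum, at 414, 171, 196 and 313 FPKM in the same order. Lep was listed at 0, and Plin1 and Cfd stayed under 1 FPKM, in every library. Osteoclast markers summed to 31.8 to 40.3 FPKM, neutrophil markers to 0.721 to 5.78 FPKM. Lymphocyte markers summed to at most 0.125 FPKM and endothelial markers to at most 4.80 FPKM in any library.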

How the data were processed

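RNA of 4 libraries of mouse marrow stromal cells was sequenced, 1 for each genotype label and medium. The deposited values were FPKM, per the file headers, in 2 tables, one for the control libraries and one for the induced ones. TopHat, Cufflinks and the mouse build mm9 were used by the authors, per the submitters' processing notes. Versions, annotation, use of the strand, filters and the scaling between the tables are not given in the sources used here. Libraries were assigned by column names, since the sheet of the control table carries the abbreviation OI. Of 24346 entries per table, 27 with a date for a symbol were left out, and 0 of the 103 entries that join several genes named a member. Absolute depth is unknown. Steps of low values gave a depth relative to the control WT library of 1.09 in the induced KO, 0.870 in the induced WT and 0.870 in the control KO library.

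Ratios were log2(FPKM + 1), with a rule of 1 in size and a floor of 1 FPKM, computed in Python 3.11.15 with pandas 2.3.3 and numpy 2.4.6. The code was checked on simulated differences well past the rule, in genes of higher level than most members. That check does not measure how reliable the calls here are. Members past the rule and the highest of each role were named with all values. The members and lists were chosen with earlier results of these data known. A model of genotype plus medium would have assumed the same genotype effect in both media and was not run. Alternatives were another pseudocount, floor, scaling or size rule, trends with length and GC removed (statsmodels 0.14.6), and the control WT library in place of the induced one. Fzd5, Rspo3, Sfrp2, Wnt11 and Wnt5a overlap an antisense gene in GENCODE M21, so reads of both strands cannot be told apart for them if the strand was not used. Promoters were matched to 36 of 56 members by symbol.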

Additional observations from a re-analysis of the deposited data

Results flagged for a closer look

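For 9 members a ratio past the size rule stood beside a ratio of the opposite sign in the matching comparison, either KO against WT in the other medium or induced against control under the other label. For Lgr5 (-0.03), Sfrp2 (-0.07) and Wnt5a (-0.17) the ratio of opposite sign was only that of induction in KO cells. These ratios were small, and Lgr5 was under 1 FPKM in both KO libraries. The KO to WT ratios of Lgr5, Sfrp2 and Wnt5a were below 0 in both media, so they did not reverse. The log2 ratio of KO to WT under induction minus that in control medium was -1.53 for Wnt5a, -2.30 for Fzd1, -1.53 for Fzd5, -1.41 for Lrp6, -2.01 for Dkk3, 2.51 for Sfrp1, -2.42 for Sfrp2, -2.17 for Lgr5 and -1.98 for Rspo2. This difference was not tested, since each group holds 1 library. All 9 values include the induced library labelled WT, which also differs from the other 3 in Xist and Y-linked RNA.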

How the results depend on the processing

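No paired analysis was possible because each group held 1 library and no replicate numbers. Of 595 values of single members under the alternatives, 538 kept their side of the size rule, 32 lost the call, 17 gained one and 8 called values changed sign. Of the 538, 24 also changed sign without a call on either side. The control library labelled WT in place of the induced one, which also differs in medium, changed the sign of 14 of 25 ratios, and the other alternatives that of 18 of 570, with 0 of them called. The called ratios of changed sign became Dkk3 0.31, Fzd1 0.21, Fzd5 0.53, Fzd8 0.28, Rspo2 0.75, Sfrp1 -1.04, Sfrp4 -0.91 and Wif1 -0.19. With the control WT library in that place 3 members were called, against 13 with the induced one. A pseudocount of 5 FPKM gave 5 calls there, 9 for induction in WT cells and 1 for induction in KO cells. A pseudocount of 0.1 FPKM gave 17 calls between the induced libraries, with Dkk2, Tcf7, Wnt4 and Wnt10b gained. It gave 2 calls between the control libraries and 4 for induction in KO cells. Equal sums gave 1 and 4 calls for these 2 comparisons, and moved the median of all entries by -0.22 and 0.21 between KO and WT (induced and control) and by -0.16 and 0.28 with induction (KO and WT cells). A size rule of 0.58 gave 7 and 6 calls. With the length trend removed, 1 call was left for induction in KO cells. The cause of these shifts was not tested. With no floor the counts were the same, as a log2 ratio of 1 on FPKM + 1 already needs 1 FPKM. Low members, such as Lgr5, Wnt4, Wnt9a and Apcdd1, are limited most by depth, which is known only in relative terms.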
